A study of Mus musculus with 1 sample.

Results

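Reactive oxygen species such as superoxide and hydrogen peroxide are made by respiration, by the phagocyte NADPH oxidase and by the oxidation of hemoglobin, and a set of enzymes removes them. Superoxide dismutases turn superoxide into hydrogen peroxide, which catalase, the glutathione peroxidases and the peroxiredoxins then reduce. Peroxiredoxins use a reactive cysteine that is restored by thioredoxin, glutathione peroxidases draw on glutathione, and both systems are recharged by NADPH. In blood-forming tissue these enzymes are best known from the red cell, which relies on catalase, GPX1 and PRDX2 to protect hemoglobin.

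The mRNA levels of 10 such genes were read in c-kit+ bone marrow (BM) cells. They are the 6 peroxiredoxins *Prdx1* to *Prdx6*, catalase (*Cat*), the glutathione peroxidases *Gpx1* and *Gpx4*, and the copper-zinc superoxide dismutase *Sod1*. They were taken by name, and all 10 were found among the 54532 gene identifiers of the data. The study compared c-kit+ BM cells of *Gadd45g*+/- mice that had a myeloproliferative neoplasm (MPN) with those of control (Ctrl) mice. The deletion was made with a Cre driven by the *Vav* promoter, which is active in blood-forming cells. The data examined here are 1 Ctrl library, from mice of the C57BL/6 strain with a wild-type genotype. Age, sex and the number of mice pooled are not given for this library. The cells were sorted for c-kit, the receptor on stem and progenitor cells, and the sample labels add that lineage markers and Sca-1 were absent. The marker genes described last do not bear that label out, since genes chosen for mature neutrophils and erythroid cells were abundant. The purity of the sort was not tested. The MPN library was not analysed here, so levels are compared between genes and no change with genotype is given.

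Levels are in FPKM, fragments scaled for the length of the gene and the size of the library, which allows genes of unequal length to be compared. Fragment numbers were recovered from the FPKM values and summed to 17113323, with numbers that did not come out whole rounded. Genes with whole numbers summed to 15899824. All 10 genes had a whole number of recovered fragments, from 389 to 39169, and each level is given with a 95% Wilson interval. These intervals cover counting error only, because there are no replicates and fragments copied from the same molecule are not independent. In bulk RNA, more cells of a type and more RNA per cell cannot be told apart.

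All 10 genes reached 1 FPKM, the level taken as detected, as did 22.2% of all genes and 46.8% of protein-coding genes. All 10 also reached 10 FPKM, against 21.2% of protein-coding genes, and 5 reached 100 FPKM, against 2.06%. Their median was 103 FPKM, 11.9 times the median of 8.66 FPKM over the 10290 protein-coding genes at 1 FPKM or more. Together they held 0.637% of the summed FPKM of the library. *Gpx1* alone made up 63.0% of their sum, and the levels ran over a range of 147 times (95% interval, 133 to 163) from *Gpx1* down to *Prdx4*, or 93.0 times with the lengths of the longest protein-coding transcripts. In descending order they were *Gpx1*, *Prdx2*, *Prdx5*, *Cat*, *Gpx4*, *Prdx3*, *Prdx1*, *Sod1*, *Prdx6* and *Prdx4*. No neighbors in this order had overlapping counting intervals, but 1 library gives no spread between mice to set against these gaps.

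**Figure D1:**
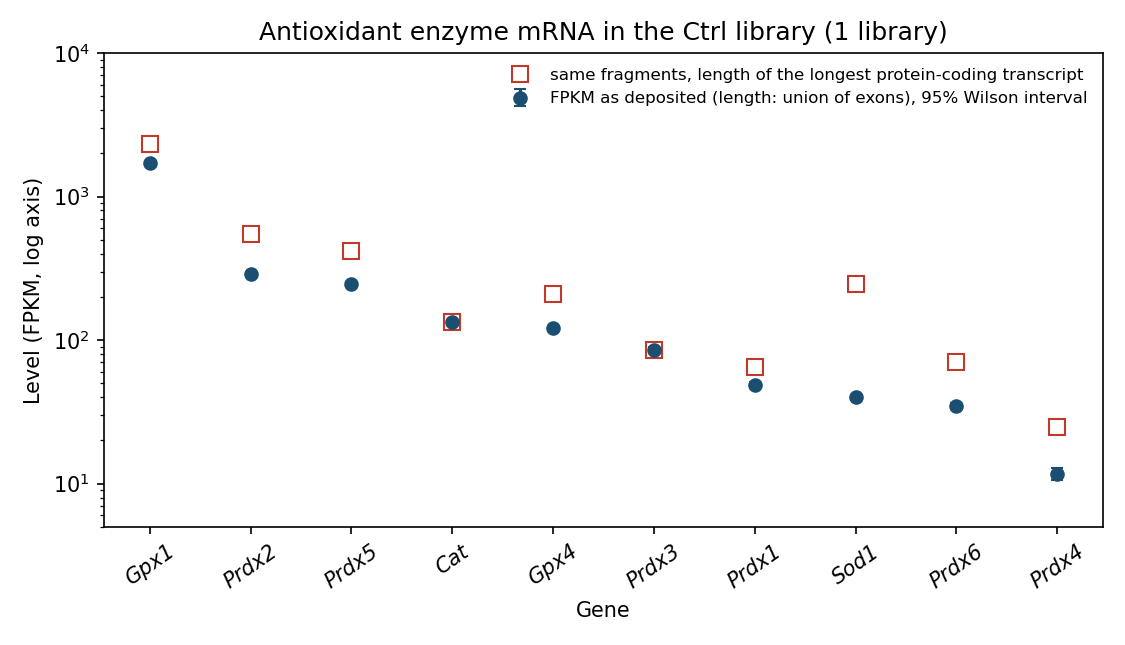
Level of each of the 10 genes in the Ctrl library (FPKM, log axis) as deposited, as filled points with 95% Wilson intervals that are mostly smaller than the points, and with the same fragments divided by the length of the longest protein-coding transcript, as open squares. *Gpx1* was highest and *Prdx4* lowest under both lengths, and *Sod1* moved most, from 39.8 to 247 FPKM.

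*Gpx1* (ENSMUSG00000063856, forward strand, chr9:108338903-108340343 of GRCm38) encodes the main glutathione peroxidase of the cytosol and mitochondria, which reduces hydrogen peroxide. Its level was 1722 FPKM (interval, 1705 to 1739), read from 39169 fragments. Only 19 protein-coding genes were higher, and its neighbors in level were *B2m*, of MHC class I, at 1761 FPKM and *Fth1*, the ferritin heavy chain, at 1620 FPKM. *Gpx4* (ENSMUSG00000075706, forward strand, chr10:80047166-80056439), whose product reduces lipid hydroperoxides in membranes and guards cells against ferroptosis, had 121 FPKM from 3285 fragments (interval, 117 to 125). *Gpx1* was thus 14.3 times *Gpx4* (interval, 13.8 to 14.8). Next below *Gpx4* in level was *G6pdx*, the first enzyme of the pentose phosphate pathway, at 120.5 FPKM.

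Both enzymes carry selenocysteine, which is read from a TGA codon that would elsewhere end translation. The annotation places this codon at chr9:108339451-108339453 for *Gpx1*, as codon 47 of 201, and at chr10:80054737-80054739 for *Gpx4*, as codon 129 of 253. The coding stretches around it are shown from the GENCODE transcripts of GRCm38, 5′ to 3′, with the selenocysteine codon in capitals.
Gpx1: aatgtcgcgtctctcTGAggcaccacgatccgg
Gpx4: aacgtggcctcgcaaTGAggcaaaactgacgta

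A near copy of *Gpx4* also held fragments. The processed pseudogene *Gpx4-ps2* (ENSMUSG00000110841, chr10:45875291-45876086) had 44.7 FPKM from 561 fragments, or 17.1% of the fragments on *Gpx4*. Over 509 aligned bases of the *Gpx4* coding sequence the pair differed at 2 positions, an identity of 99.6%, so a short fragment may come from either. Coding bases 325 to 444 of *Gpx4* are shown beside the matching stretch of the pseudogene, with the base that differs in capitals.
Gpx4: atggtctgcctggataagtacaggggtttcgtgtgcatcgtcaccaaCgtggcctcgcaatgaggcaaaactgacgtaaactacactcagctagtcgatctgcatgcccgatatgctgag
Gpx4-ps2: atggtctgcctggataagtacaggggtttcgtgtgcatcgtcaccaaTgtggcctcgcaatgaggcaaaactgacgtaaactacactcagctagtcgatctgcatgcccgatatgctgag

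With all fragments of the pseudogene counted for *Gpx4*, its level was 141 FPKM (95% Wilson interval, 137 to 146) and passed that of *Cat*. This addition was chosen after the values were seen, and the origin of the 561 fragments was not tested. Near copies of the other genes held few fragments, but their effect on the levels of those genes was not tested. The coding sequences were searched against all annotated transcripts for genes at least 85% identical over at least 50% of their length. *Sod1* had 2 such copies with 75 fragments beside 2496 of its own, all on *Gm8566*. *Prdx1* had 4 with 30 fragments, *Prdx2* had 2 with 24, and *Prdx6* had 1, *Prdx6b*, which is listed at 0. *Prdx3*, *Prdx4*, *Prdx5*, *Cat* and *Gpx1* had no such copy. The copies with fragments were close to their genes, at 98.3% identity for *Gm21399* with *Prdx1*, 97.8% for *Gm8566* with *Sod1* and 96.3% for *Tdpx-ps1* with *Prdx2*.

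The 6 peroxiredoxins had a median of 67.5 FPKM, and *Prdx2* and *Prdx5* held 74.7% of their summed level. *Prdx2* (ENSMUSG00000005161, forward strand, chr8:84969587-84974834), a cytosolic enzyme abundant in red cells, had 289 FPKM from 13936 fragments (interval, 285 to 294). Exons of *Junb* and *Rnaseh2a*, on the opposite strand, cover 5.67% and 5.80% of its exon bases. *Junb* had 306 FPKM from 11117 fragments and *Rnaseh2a* had 10.3 FPKM from 573. The strand setting is not given in the sources used here, so their fragments cannot be told apart from those of *Prdx2* in these stretches. *Prdx1* (ENSMUSG00000028691, forward strand, chr4:116685544-116700822), its close cytosolic relative, had 49.1 FPKM from 2356 fragments (interval, 47.1 to 51.1). *Prdx2* was 5.90 times *Prdx1* (interval, 5.65 to 6.16). In the order of protein-coding genes *Prdx2* stood at place 129 and *Prdx1* at place 1034.

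*Prdx5* and *Prdx3* act in mitochondria, *Prdx5* also in peroxisomes and the cytosol. *Prdx5* (ENSMUSG00000024953, reverse strand, chr19:6906697-6910106) had 246 FPKM from 8314 fragments (interval, 241 to 252). Exons of *Trmt112*, on the opposite strand, cover 19.1% of its exon bases, and since the strand setting of the counting is not given in the sources used here, fragments of the pair in that stretch cannot be told apart. *Prdx3* (ENSMUSG00000024997, reverse strand, chr19:60864051-60874556) had 85.9 FPKM from 2005 fragments (interval, 82.3 to 89.8). *Prdx5* was 2.87 times *Prdx3* (interval, 2.73 to 3.01), and 4.86 times with the lengths of the longest protein-coding transcripts.

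*Prdx6* and *Prdx4* were the lowest peroxiredoxins by FPKM, and *Prdx4* and *Prdx1* with the lengths of the longest protein-coding transcripts. *Prdx6* (ENSMUSG00000026701, reverse strand, chr1:161240112-161251219), which has 1 catalytic cysteine, takes its electrons from glutathione and also acts as a phospholipase, had 34.9 FPKM from 2649 fragments (interval, 33.6 to 36.3). *Prdx4* (ENSMUSG00000025289, reverse strand, chrX:155323918-155340754), the peroxiredoxin of the endoplasmic reticulum, had 11.7 FPKM from 389 fragments (interval, 10.6 to 12.9). Even *Prdx4* was above 59.4% of the detected protein-coding genes. *Prdx2* was 24.7 times *Prdx4* (interval, 22.4 to 27.4).

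*Cat* (ENSMUSG00000027187, reverse strand, chr2:103453849-103485160), the peroxisomal enzyme that splits hydrogen peroxide without a reductant, had 133 FPKM from 5499 fragments (interval, 130 to 137). *Gpx1* was 12.9 times *Cat* (interval, 12.6 to 13.3). *Sod1* (ENSMUSG00000022982, forward strand, chr16:90220754-90226329), which makes hydrogen peroxide from superoxide in the cytosol, had 39.8 FPKM from 2496 fragments (interval, 38.3 to 41.4). The level of *Sod1* rests on the length it was divided by. The annotation gives it 2 transcripts, a protein-coding transcript of 641 nucleotides and a retained-intron transcript of 3970 nucleotides that sets the length behind its FPKM. Divided by the length of the protein-coding transcript, the same fragments gave 247 FPKM, 6.19 times as much, and *Sod1* went from place 8 to place 4 of the 10. Which of the 2 transcripts the fragments came from was not tested. For the other 9 genes the same replacement raised the level by 1 to 2.13 times. *Gpx1*, *Prdx2*, *Prdx5* and *Prdx4* kept their places at the top and bottom of the order, while *Gpx4* passed *Cat* and *Prdx6* passed *Prdx1*.

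**Figure D2:**
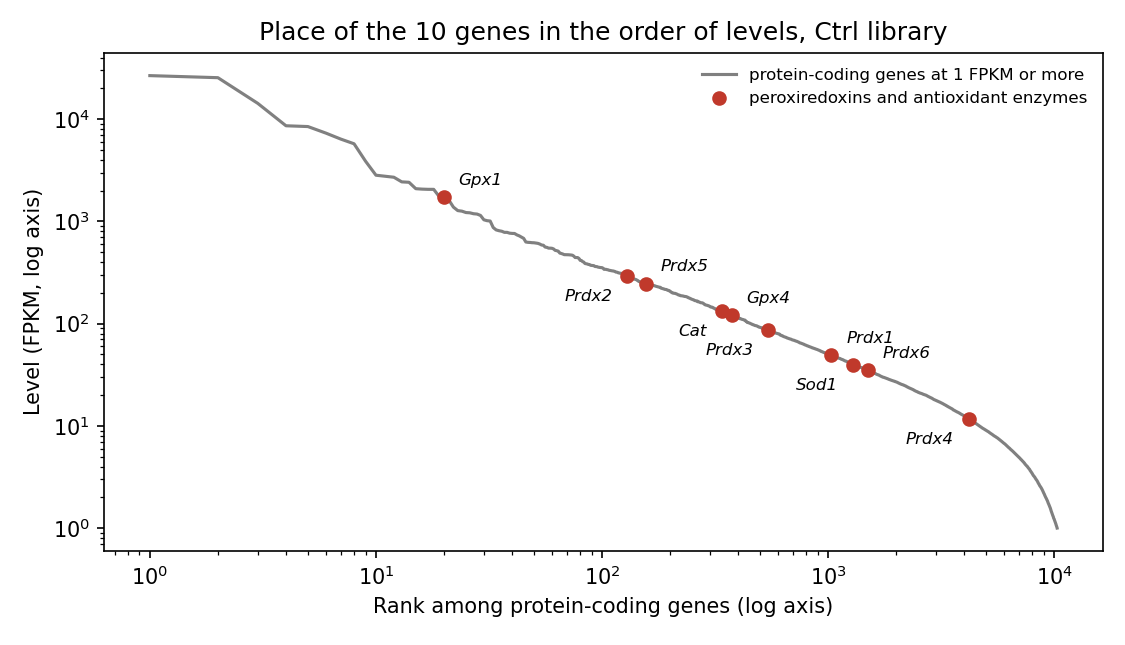
Level (FPKM, log axis) against rank (log axis) for protein-coding genes at 1 FPKM or more in the Ctrl library (line), with the 10 genes as points. They ran from place 20, *Gpx1*, to place 4177, *Prdx4*, and 5 lay among the 500 highest.

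Other genes of antioxidant metabolism and its regulation were read from lists by role, with 65 genes in 8 lists, of which 55 were detected, beside 46.8% of protein-coding genes. At 0.1 FPKM or more there were 60 of the 65, beside 59.1% of protein-coding genes. The median of the 65 was 13.3 FPKM, against 103 FPKM for the 10 genes, and 7 of the 65 were above the median of the 10. The lists and the 10 genes share 1 library, so no test sets them apart.

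The thioredoxin system, which recharges most peroxiredoxins, had all 10 of its genes at 1 FPKM or more and a median of 15.4 FPKM. *Txn1*, cytosolic thioredoxin, had 230.0 FPKM (interval, 223 to 237), 11.1 times the mitochondrial *Txn2* at 20.8 FPKM. With the lengths of the longest protein-coding transcripts this ratio was 5.39. Of the reductases that restore them, all were below *Txn1*, with 23.5 FPKM for the mitochondrial *Txnrd2*, 14.1 FPKM for the cytosolic *Txnrd1* and 1.61 FPKM for *Txnrd3*, the lowest of the list. *Txnip*, whose product binds and inhibits thioredoxin, had 160 FPKM (interval, 156 to 163). *Srxn1*, sulfiredoxin, which repairs overoxidized peroxiredoxins, had 4.45 FPKM from 198 fragments, and the sestrin genes *Sesn1*, *Sesn2* and *Sesn3* had 16.8, 10.2 and 2.37 FPKM.

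In glutathione synthesis and recycling 9 of 10 genes were detected, and the median level was 21.4 FPKM. *Gsr*, glutathione reductase, led with 229 FPKM (interval, 224 to 233), 16.2 times *Txnrd1* by FPKM and 8.56 times with the lengths of the longest protein-coding transcripts. The subunits of the enzyme that makes the first, limiting step of glutathione synthesis stood close together, with 47.5 FPKM for the modifier subunit *Gclm* and 39.6 FPKM for the catalytic subunit *Gclc*, a ratio of 1.20 (interval, 1.14 to 1.26). *Gss*, which completes glutathione, had 2.48 FPKM from 232 fragments, or 7.49 FPKM with the length of its longest protein-coding transcript. *Slc7a11*, the cystine importer, had 0.910 FPKM from 200 fragments, the lowest of the list. With the length of its longest protein-coding transcript *Slc7a11* had 1.37 FPKM, and so passed 1 FPKM. Among the glutaredoxins, *Glrx5*, which takes part in iron-sulfur cluster assembly, had 73.3 FPKM. *Glrx*, *Glrx3* and *Glrx2* had 31.1, 11.7 and 1.96 FPKM. With the lengths of the longest protein-coding transcripts *Glrx*, at 127 FPKM, was above *Glrx5*, at 92.3 FPKM.

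Of the other 6 glutathione peroxidases, only *Gpx3*, the plasma enzyme, reached 1 FPKM, at 11.5 FPKM from 330 fragments (interval, 10.4 to 12.8), and *Gpx1* was 149 times as high (interval, 134 to 166). *Gpx8* had 9 fragments and *Gpx7* had 5. *Gpx2*, *Gpx5* and *Gpx6* are listed at 0, where the 3 fragments that a count of 0 allows would give 0.0590, 0.114 and 0.139 FPKM. Among the superoxide dismutases, *Sod2*, the mitochondrial enzyme, had 5.75 FPKM from 908 fragments (interval, 5.39 to 6.13), and *Sod3*, the extracellular enzyme, had 2 fragments. *Sod1* was 6.93 times *Sod2* (interval, 6.42 to 7.48) in FPKM, 2.75 times when fragments were not divided by length, and 25.1 times with the length of the longest protein-coding transcripts. The direction was the same in all 3, but the size was not. The copper carrier *Atox1* had 74.2 FPKM, and *Ccs*, which loads copper onto SOD1, had 18.5 FPKM.

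NADPH, which pays for both systems, is made by the pentose phosphate pathway and a few other enzymes. Of its 8 genes 6 were detected, and the median level was 71.9 FPKM. The non-oxidative enzymes *Taldo1* and *Tkt* had 327 and 154 FPKM, and the NADPH-forming enzymes *G6pdx* and *Pgd* had 120.5 and 109 FPKM. With the lengths of the longest protein-coding transcripts *Taldo1* and *Tkt* had 522 and 352 FPKM. *Pgd*, at 315 FPKM, was then above *G6pdx*, at 140 FPKM. The isocitrate dehydrogenases *Idh1* and *Idh2* had 35.4 and 27.5 FPKM. Malic enzyme *Me1* had 4 fragments. *Nnt*, the transhydrogenase of mitochondria, had 20 on the identifier with the higher value, since its symbol is duplicated in the annotation.

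Of the 7 genes that make selenoproteins, 6 were detected, and their median was 7.64 FPKM. *Sephs2*, which supplies activated selenium, led with 31.9 FPKM from 1095 fragments. *Secisbp2*, whose product directs the ribosome past the selenocysteine codon, had 8.71 FPKM, and *Eefsec*, the elongation factor for selenocysteine, had 5.18 FPKM. *Pstk*, the lowest, had 0.544 FPKM from 68 fragments. With the lengths of the longest protein-coding transcripts *Pstk* had 3.80 FPKM, and so passed 1 FPKM. *Secisbp2*, at 12.1 FPKM, was then the middle gene of the list. All 7 were thus below *Gpx1* and *Gpx4*, the selenium enzymes among the 10 genes.

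**Figure D3:**
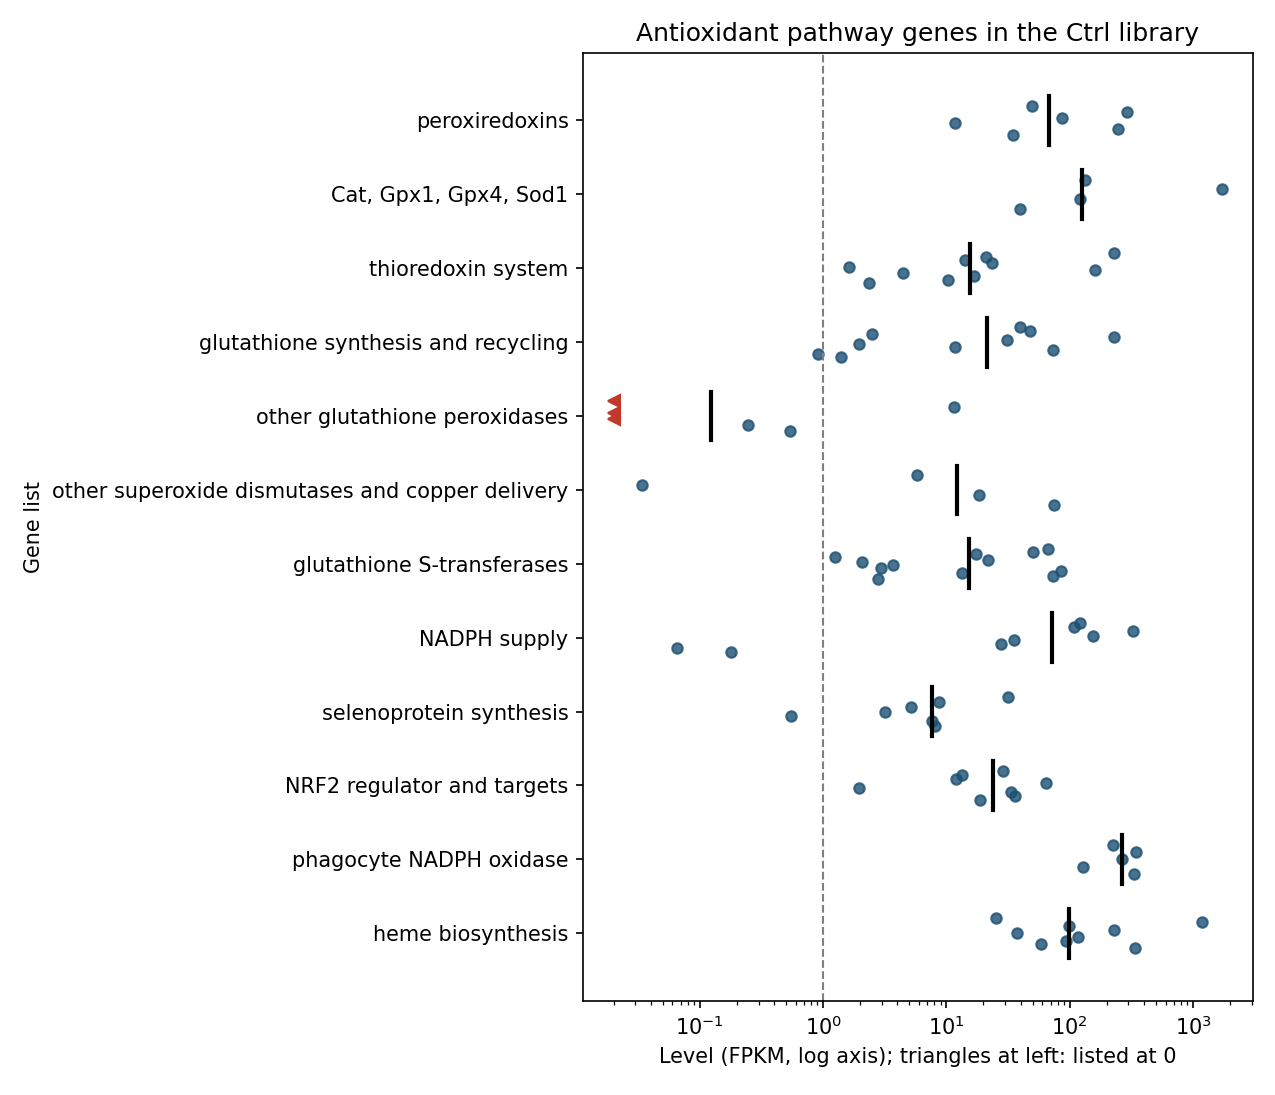
Level (FPKM, log axis) of each gene of the lists by role in the Ctrl library, 1 point per gene, with the median of each list as a black bar, 1 FPKM as a dashed line and genes listed at 0 as triangles at the left. All of the 10 antioxidant genes but *Prdx4* lay to the right of the list medians of 15.4 FPKM for the thioredoxin system and 21.4 FPKM for glutathione, and 3 of the other glutathione peroxidases are listed at 0.

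NRF2, the factor that turns on many antioxidant genes, and its partners were read from a list of 8 genes, all at 1 FPKM or more, with a median of 23.9 FPKM. *Nfe2l2*, the gene of NRF2, had 29.0 FPKM (interval, 27.7 to 30.4), its inhibitor *Keap1* had 13.3 FPKM, and *Bach1*, a repressor that competes for the same sites, had 18.7 FPKM. The partners *Mafk* and *Mafg* had 36.3 and 33.2 FPKM, and *Maff* was lowest at 1.95 FPKM. Of the targets, *Hmox1*, heme oxygenase, had 64.8 FPKM and *Nqo1* had 12.1 FPKM. NRF2 binds the antioxidant response element, whose core is TGACNNNGC. RefSeq promoters of GRCm38, from 250 bases before to 50 after the gene start, were matched by symbol for 9 of the 10 genes and searched on both strands, and *Prdx6* was not matched. The core was found in 2 of the 12 promoters of these genes, those of *Prdx1* and *Sod1*, a share near the 12.4% of all 32851 promoters that hold it. Both matches lay on the strand opposite to the gene and are printed along the gene's strand with the match in capitals, at chr4:116685446-116685494 for *Prdx1* and chr16:90220686-90220734 for *Sod1*.
Prdx1: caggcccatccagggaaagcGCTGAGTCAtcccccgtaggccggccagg
Sod1: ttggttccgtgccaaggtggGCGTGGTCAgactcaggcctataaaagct

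These matches are letters in a window and not measured sites of binding.

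The sources and users of heme and superoxide were read beside the 10 genes. From the phagocyte NADPH oxidase, which makes superoxide in granulocytes and monocytes, 5 genes are given, with a median of 264 FPKM and a range from 129 FPKM for *Ncf4* to 348 FPKM for *Cyba*. *Gpx1* was above all 5, *Prdx2*, *Prdx5* and *Cat* lay within their range, and the other 6 lay below it. With the lengths of the longest protein-coding transcripts for every gene, the range was 178 to 486 FPKM and held *Prdx5*, *Sod1* and *Gpx4*, with *Prdx2* above it and *Cat* below. The 9 genes of heme synthesis had a median of 98.3 FPKM and ran from 25.3 FPKM for *Alas1* to 1189 FPKM for the erythroid *Alas2*, a range that held 8 of the 10 genes, all but *Gpx1* and *Prdx4*.

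The cells in the library were read from marker genes. The 8 genes chosen as markers of c-kit+ progenitors were all detected at a median level of 11.8 FPKM. *Kit*, the gene of the sorted receptor, had 7.17 FPKM, below the median of 8.66 FPKM over detected protein-coding genes. With the length of its longest protein-coding transcript *Kit* had 12.2 FPKM, which cannot be set against that median of deposited values. The highest of the list were *Elane*, *Mpo* and *Prtn3*, the granule protease and peroxidase genes of granulocyte precursors, at 781, 434 and 379 FPKM. The list held 0.381% of the summed FPKM. With the lengths of the longest protein-coding transcripts *Prtn3*, at 641 FPKM, was above *Mpo*, at 541 FPKM. The list median then lay between *Cd34* at 14.9 FPKM and *Myb* at 39.8 FPKM. The genes chosen as markers of mature neutrophils and of erythroid cells had the highest medians of the lists. The 9 genes of the neutrophil list, led by *S100a9*, held 12.8% of the summed FPKM with a median of 2831 FPKM. Whether they mark mature neutrophils alone or also their precursors was not tested. Of 11 erythroid genes 10 were matched by symbol, and these, led by *Hba-a1*, held 11.8% with a median of 1113 FPKM. Fragments of the near-identical alpha globin genes may be split between them. All 7 macrophage, 6 B cell, 5 T cell and 5 megakaryocyte genes reached 1 FPKM too, with shares of 0.0614%, 0.0985%, 0.00835% and 0.0202%, medians of 45.6, 51.9, 5.25 and 16.2 FPKM, and their highest genes *Csf1r*, *Cd79a*, *Trac* and *Ppbp*. No marker of any list is listed at 0. *Gpx1*, *Prdx2* and *Cat*, the enzymes best known from red cells, stood at places 1, 2 and 4 of the 10 genes by FPKM. With the length of the longest protein-coding transcript *Cat* stood at place 6. *Prdx5*, not named among them, stood at place 3 under both lengths. A sort for c-kit without lineage markers, as the labels describe it, would remove mature neutrophils and late erythroid cells. The lists chosen for neutrophils and erythroid cells held 12.8% and 11.8% of the summed FPKM, which does not bear that description out. The lists were not shown to separate late cells from their precursors. Shares of the summed FPKM are not shares of cells, and the purity of the sort was not tested. How much of the mRNA of *Gpx1*, *Prdx2* and *Cat* came from erythroid cells, neutrophils or progenitors was not tested. With 1 library there is no second value with which it could be.

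**Figure D4:**
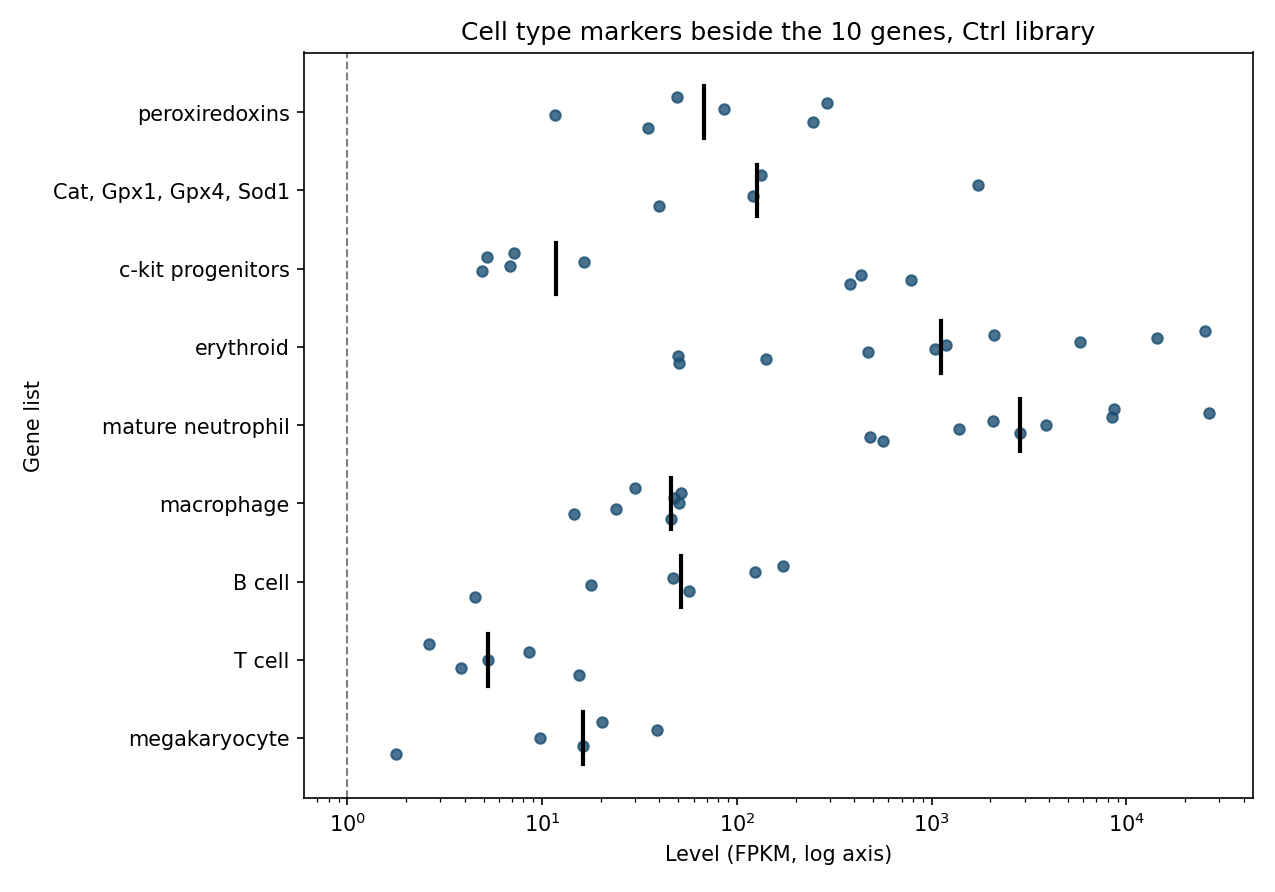
Level (FPKM, log axis) of each marker gene by cell type in the Ctrl library, beside the 10 genes, 1 point per gene, with list medians as black bars and 1 FPKM as a dashed line. The mature neutrophil list began at 480 FPKM, for *Mmp8*, and by FPKM *Gpx1* was the only one of the 10 genes in that range, which *Prdx2* also entered, at 548 FPKM, with the length of its longest protein-coding transcript (not plotted).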

How the data were processed

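The authors sequenced 1 Ctrl mRNA library of c-kit+ cells (HiSeq 4000). The submitters' processing notes name HISAT2 2.0.5, featureCounts 1.5.0-p3 and the mm10 build. The annotation and strand setting are not given in the sources used here. The authors deposited 1 FPKM value per gene. Names, coordinates and union exon lengths came from GENCODE M21 (GRCm38), which held 54495 of the 54532 identifiers, and of duplicated symbols the higher value was used. Products of FPKM and length were whole multiples of a common step, within 0.01, for 96.4% of genes above 0, and were taken as fragments. The step corresponds to a total of 15783891, which was used for the Wilson intervals. With the products of the other genes rounded, all recovered fragments came to 17113323. Those of genes with whole multiples came to 15899824. Both sums were above the total of 15783891, and the reason was not tested. The width of an interval rests on the fragments of the gene and hardly on the total. A gene without a whole multiple was given no interval. In simulated data for the Ctrl library, with some lengths made wrong, 100% of 19235 genes of right length came back exactly.

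The 10 genes and all lists were chosen with earlier results of these data known. The named genes were the 10, genes of the lists, near copies, genes with overlapping exons and neighbors in level. No test was made, since there is 1 library. Alternatives were other detection minimums, totals, lengths and TPM. A further gene of the NADPH oxidase list is not reported here. Near copies were searched with blastn 2.17.0. Near-copy limits, exon overlaps, the promoter motif and all ratios but *Prdx2* to *Prdx1*, *Gpx1* to *Gpx4* and *Sod1* to *Sod2* were chosen after the levels were seen. Other tools were scipy 1.17.1, pandas 2.3.3, matplotlib 3.10.9, numpy 2.4.6 and Python 3.11.15.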

Additional observations from a re-analysis of the deposited data

How the results depend on the processing

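No paired analysis was possible because only 1 library, Ctrl, entered the work. The 10 genes all passed minimums of 0.1 and 10 FPKM. Of the 65 pathway genes 60 and 37 did, in place of 55 at 1 FPKM. The shares of protein-coding genes were 59.1% and 21.2%, in place of 46.8%. With the length of the longest protein-coding transcript, *Slc7a11* and *Pstk* also reached 1 FPKM. The median of the 10 genes, 103 FPKM, was 105 FPKM without mitochondrial genes in the total, 113 FPKM without the 10 most abundant genes, 171 FPKM with the length of the longest protein-coding transcript, and 241 after rescaling to TPM. Rescaling multiplies every gene by the same factor, 2.33 for TPM, and leaves ratios as they were. Their share, 0.637%, was 0.861% without the 10 most abundant genes, 0.664% without mitochondrial genes, 0.468% of the 17113323 fragments not divided by length and 0.725% with the longest protein-coding transcript. With that length the highest gene was 93.0 times the lowest in place of 147, *Prdx2* was 8.42 times *Prdx1* in place of 5.90, *Gpx1* was 11.1 times *Gpx4* in place of 14.3, and *Sod1* was 25.1 times *Sod2* in place of 6.93. Without division by length the last pair of ratios were 11.9 and 2.75, and *Prdx2* to *Prdx1* was 5.92. With fragments of *Gpx4-ps2* added to *Gpx4*, an alternative chosen after seeing the data, *Gpx1* was 12.2 times *Gpx4*. These 3 ratios kept their direction, while *Cat* to *Gpx4* went from 1.10 to 0.637 and *Prdx1* to *Sod1* from 1.23 to 0.264 with the longest protein-coding transcript, and *Gpx4* to *Cat* from 0.905 to 1.06 with the fragments of the pseudogene. These moves follow from the lengths or the fragments put in. Depth limits genes with few fragments, such as *Gpx7* and *Me1*, and the spread between mice is unknown at every level.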

Other observations

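Glutathione S-transferases, which join glutathione to foreign and lipid-derived molecules, were read from a list of 12 genes, all at 1 FPKM or more, with a median of 15.4 FPKM. The microsomal enzymes *Mgst1* and *Mgst3* led, with 85.8 FPKM from 2726 fragments (95% Wilson interval, 82.6 to 89.1) and 73.2 FPKM from 1268 fragments (interval, 69.3 to 77.4), and the intervals of *Mgst1* and *Prdx3* overlapped. The soluble *Gstp1* and *Gstm1* had 66.3 and 50.6 FPKM. With the lengths of the longest protein-coding transcripts, *Mgst1* had 148 FPKM, *Gstp1* 125 FPKM and *Mgst2* 82.4 FPKM, above *Mgst3* at 73.2 FPKM, and *Prdx3* had 85.9 FPKM. The median of the 12 genes then lay between *Gstm5* at 23.4 FPKM and *Gsto1* at 37.4 FPKM. *Gstp1* is given without an interval, because its value was not a whole multiple of the step. *Gsta4*, whose product clears a breakdown product of oxidized lipids, was lowest, at 1.25 FPKM from 25 fragments (interval, 0.847 to 1.85). *Msrb1*, a selenium enzyme that reduces oxidized methionine, was the protein-coding gene directly below *Prdx2*, at 289 FPKM. It was on no list and is named for its place in the order.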
